A study of Mus musculus with 3 samples.

Results

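The nuclear and imprinted long noncoding RNAs described here are Malat1, Neat1, Miat, Meg3, Kcnq1ot1, H19, Airn and Pvt1. They were taken by symbol alone, and they are 8 of the 48709 mouse genes in the deposited count table, of which 7396 are annotated as long noncoding RNA. Malat1, Neat1 and Miat are long noncoding RNAs that stay in the nucleus, Meg3, Kcnq1ot1, H19 and Airn are made from imprinted domains, and Pvt1 lies next to the Myc gene. The RNA came from cells sorted out of dissociated lung of transgenic mice that carry creERT2 driven by smooth muscle actin and a tdTomato reporter. All 3 libraries belong to 1 group, WT, from mice given 75 mg/kg of tamoxifen daily for 10 days at 8 weeks of age and killed 2 months later. The study therefore holds no comparison between conditions, and what follows gives the level of each RNA, its partners in the same locus and its spread over the 3 libraries. Nothing in the labels says that the libraries came from separate mice, so the spread may be technical in part.

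The labels call the cells lung smooth muscle cells, and the marker genes did not bear this name out. Acta2, the smooth muscle actin gene, stood at 13.2 ± 3.36 counts per 1000000 counts of the library (CPM; SD, n = 3), and Cnn1, which encodes calponin, had 0, 7 and 5 counts. Ptprc, the pan-leukocyte surface phosphatase CD45, stood at 1480 ± 151 CPM. Summed over 10 markers each, smooth muscle genes reached 141 to 188 CPM per library, lymphocyte genes 2381 to 2874 CPM and airway epithelium genes 2846 to 13848 CPM. Single genes carried much of the last 2 sums, namely Ptprc for lymphocytes and the club cell secretoglobin Scgb1a1, at 13192, 2632 and 7641 CPM, for the airway. The median log2(CPM + 1) of the lists was 3.67 ± 0.24 for smooth muscle, 4.40 ± 0.20 for airway epithelium and 6.91 ± 0.30 for lymphocytes. The cells are called sorted lung cells below. In such bulk RNA, fewer cells of a type and less RNA per cell cannot be told apart. Library totals were 18896263, 18355813 and 16877297 counts, so that 3 counts, taken as the upper limit behind a count of 0, correspond to 0.159 to 0.178 CPM.

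Long noncoding RNAs are transcribed by RNA polymerase II like messenger RNAs but encode no known protein, and many act where they are made. Malat1 gathers in nuclear speckles, which hold splicing factors, and Neat1 is the scaffold around which paraspeckle proteins assemble. Imprinted genes are expressed from 1 parental copy, and the imprinted long noncoding RNAs are usually made from the parental chromosome on which neighbouring coding genes are silent. Counts do not separate the parental alleles, so imprinting itself was not measured.

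Malat1 and Neat1 lie on chromosome 19 on the same strand, 22035 bases apart, and are the members whose ends are made in an unusual way. RNase P cuts a tRNA-like RNA off the nascent transcript, and the new 3′ end, which has no poly(A) tail, is protected by a triple helix of U-rich stretches and an A-rich tract. The stretches are shown because these are the RNAs with the highest levels per length of the 8 and share their ends. Both windows come from GENCODE M21 transcripts on GRCm38, minus strand, printed 5′ to 3′ as DNA letters. Capitals mark the words of at least 10 letters that both windows hold. The Neat1 window is the last 90 bases of its 20771-base transcript, chr19:5824708-5824797, and the Malat1 window, chr19:5795982-5796071, ends at the same A-rich word.
Neat1: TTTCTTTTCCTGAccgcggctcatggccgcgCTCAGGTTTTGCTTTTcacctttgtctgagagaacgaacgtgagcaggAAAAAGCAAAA
Malat1: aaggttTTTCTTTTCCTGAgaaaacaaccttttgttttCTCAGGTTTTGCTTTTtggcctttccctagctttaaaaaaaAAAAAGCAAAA
The annotated Malat1 transcript runs 292 bases past this window, whereas Neat1 ends with it. The next 56 bases are also alike. After Neat1 they are a gene of their own in the table, Gm27702, annotated as a small RNA at chr19:5824652-5824707 with a gap of 0 bases to Neat1, and after Malat1 they lie at chr19:5795926-5795981. Capitals here mark shared words of at least 8 letters.
Gm27702: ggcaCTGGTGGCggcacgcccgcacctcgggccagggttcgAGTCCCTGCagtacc
Malat1 next bases: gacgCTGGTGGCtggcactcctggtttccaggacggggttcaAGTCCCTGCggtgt
Of 30220 long noncoding transcripts in the annotation, 2 hold all 3 words of the upper pair anywhere in their length, 1 of Malat1 and 1 of Neat1. By itself the 11-letter word AAAAAGCAAAA occurs in 73 of them, the 13-letter word TTTCTTTTCCTGA in 5 and the 16-letter word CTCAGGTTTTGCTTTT in 2. The small RNA gene after Neat1 had 2, 5 and 6 counts over its 56 bases, 0.245 CPM on average and near the limit of 3 counts. Neat1 beside it had at least 5158 counts in each library over 20771 bases, so the raw counts do not compare their levels. The sources used here do not give whether the libraries kept an RNA this short.

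Malat1 (ENSMUSG00000092341, chr19:5795690-5802672, 1 exon of 6983 bases) was the dominant member. Its row held 153535, 174420 and 221998 counts, which are 8125, 9502 and 13154 CPM and average 10260 ± 2599 CPM. Library 3 was highest and library 1 lowest, 1.62-fold apart (exact 95% interval 1.61 to 1.63), and 1.44-fold apart when libraries were scaled by TMM, the trimmed mean of log ratios. Malat1 alone took 0.813% of all counts in library 1, 0.950% in library 2 and 1.32% in library 3. The 8 RNAs together took 38.7%, 27.6% and 53.9% of the counts of all long noncoding RNA genes. That share was lowest in library 2, where Gm26917, a locus on chromosome 17, held 362684 counts against 143668 and 69418 in the others. Intervals here and below cover counting error only, since PCR copies were not told apart by molecular identifiers. They also make no allowance for picking the highest and lowest library from the same counts, so they are no test of variation.

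Neat1 (ENSMUSG00000092274, chr19:5824708-5845478, 1 exon of 20771 bases) had 6423, 5158 and 8596 counts. These are 340, 281 and 509 CPM, or 377 ± 119 CPM on average. Library 3 was again highest, but the lowest was library 2, so Neat1 and Malat1 did not rank the libraries alike. Per kilobase of exon, Malat1 stood at 1469 ± 372 CPM and Neat1 at 18.1 ± 5.71 CPM. The difference within a library was 6.36 ± 0.26 on the log2 scale, 81.9-fold, and it was 6.15 at the lowest and 6.65 at the highest. All counts of Neat1 were divided by its full 20771 bases. Shorter transcripts of Neat1 were not told apart, and any present would make this level per length too low. The 3 rows that overlap each of these RNAs in the table, mostly RNAs of the miscellaneous class such as Gm27533 in Neat1 and Gm27694 in Malat1, had no count at all. How reads that overlap 2 genes were counted is not given, so these counts of 0 set no limit. Frmd8, the next coding gene beyond Neat1, had 869, 786 and 548 counts and was lowest in library 3, where Neat1 was highest.

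**Figure D1:**
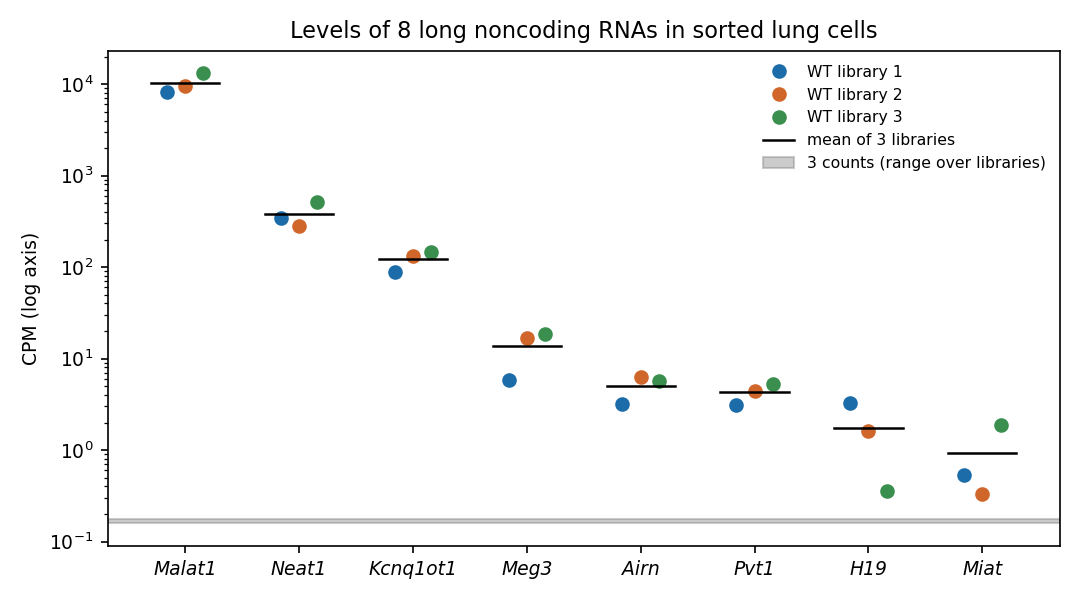
CPM of the 8 long noncoding RNAs on a log axis, 1 point per library, with a line at the mean of 3 libraries and a grey band at 3 counts (0.159 to 0.178 CPM). Levels are not per length, so a gene is to be compared with itself: library 3 (green) lies highest for 6 genes, and H19 runs the other way, from 3.28 CPM in library 1 to 0.356 CPM in library 3.

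The proteins with which these RNAs share nuclear bodies were all expressed. Of 15 paraspeckle protein genes, 15 exceeded 10 CPM, with a median log2(CPM + 1) of 7.22 ± 0.18, beside 2.52 ± 0.06 over all 23317 genes with at least 10 counts. Sfpq, a core paraspeckle protein, stood at 488 ± 95.4 CPM and its partner Nono at 179 ± 19.2 CPM. Their paralogue Pspc1 stood at 60.7 ± 10.3 CPM. Per kilobase of exon, Sfpq reached 103 CPM, Nono 40.9 CPM and Pspc1 10.6 CPM, beside 18.1 CPM for Neat1. Of 13 nuclear speckle protein genes, 13 exceeded 10 CPM and their median was 7.29 ± 0.28. Srrm2, a speckle scaffold protein, stood at 1103 ± 181 CPM and Son at 774 ± 119 CPM. The list medians were 7.05, 7.19 and 7.40 for paraspeckles and 7.05, 7.23 and 7.60 for speckles in libraries 1 to 3. Both were highest in library 3, as Malat1 and Neat1 were. The median over the 23317 genes was also highest there, at 2.49, 2.49 and 2.59, and 42.3% of these genes were highest there by CPM. Both list medians were lowest in library 1, as Malat1 was, whereas Neat1 was lowest in library 2.

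Meg3 (ENSMUSG00000021268, chr12:109541001-109571726, plus strand) is the maternally expressed RNA of the Dlk1-Dio3 domain, where Rian, Mirg and a large cluster of microRNAs follow it on the same strand. It had 109, 311 and 310 counts, which are 5.77, 16.9 and 18.4 CPM and average 13.7 ± 6.90 CPM. Library 1 stood apart, 3.18-fold under library 3 (exact 95% interval 2.55 to 4.0), while libraries 2 and 3 were close. Rian, Mirg and Rtl1 were also lowest in library 1. Rian had 40, 115 and 100 counts, Mirg 1, 7 and 11, and the imprinted retrotransposon-like gene Rtl1 1, 54 and 26. How strands were counted is not given, so RNA from the opposite strand at Rtl1 cannot be told apart from Rtl1. The log2 ratio of Meg3 to Rian stayed within 1.12 to 1.48 over the libraries, 1.30 ± 0.18 on average, and 1.31 per kilobase of exon. Dlk1, the paternally expressed coding gene at one end of the domain, had 0, 1 and 2 counts, and Dio3 2, 0 and 5, so both were at or under the limit of 3 counts in at least 2 libraries. Other coding genes listed with the domain differed in this. Begain, at 50, 31 and 37 counts, and Wars, at 719, 647 and 639, were highest in library 1 by CPM. Wdr25, at 44, 51 and 53 counts, was lowest there. None of these genes was called in the test of variation between libraries.

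Fibroblast markers were low in the same library as Meg3. The summed level of 10 such genes, among them Col1a1, Dcn and Pdgfra, was 900, 1880 and 1923 CPM. All 10 were lowest in library 1, and none was at 0 in any library. By CPM, 46.4% of all genes with at least 10 counts were lowest there. So were 13 of 15 paraspeckle genes, 10 of 13 nuclear speckle genes and 7 of 10 lymphocyte markers. Library 1 also stood apart in other markers. Smooth muscle markers were lowest there in 8 of 10 genes, with sums of 141, 188 and 156 CPM. The sums of 4 other lists were highest there, at 925, 523 and 675 CPM for endothelium, 2329, 545 and 653 CPM for alveolar epithelium, 13848, 2846 and 7963 CPM for airway epithelium and 911, 295 and 389 CPM for myeloid cells. The part of these markers in the level of Meg3 was not tested. Libraries 2 and 3 alone give Meg3 no difference beyond counting error (chi-square test, Benjamini-Hochberg adjusted p = 0.977). Among 8943 genes with at least 10 CPM, the gene whose pattern over the 3 libraries came nearest to Meg3 was Islr, at 4.39, 13.9 and 14.8 CPM, and 7 genes lay within a distance of 0.05. The distance is the root mean square difference of log2(CPM + 1) after each gene's mean is removed. Adding 1 narrows the deviations of genes at low CPM.

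**Figure D2:**
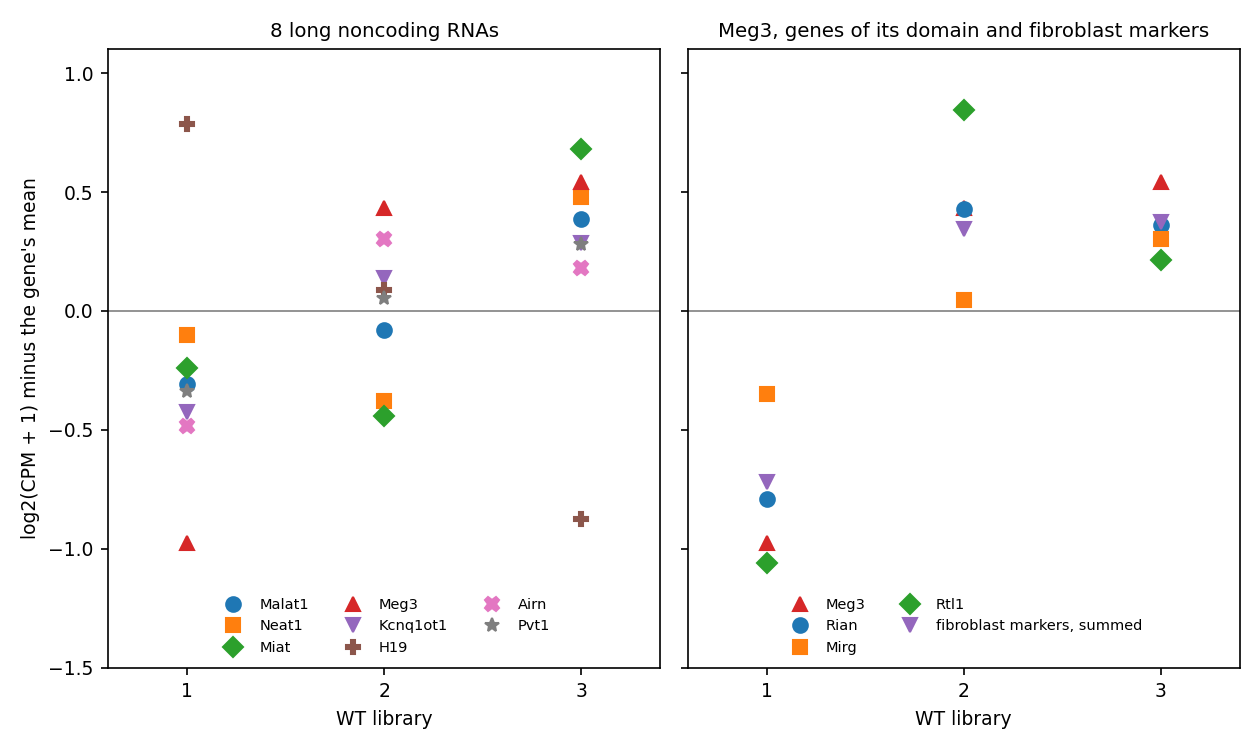
Each point is a gene's log2(CPM + 1) in 1 of the 3 WT libraries minus that gene's mean, with the 8 long noncoding RNAs on the left and Meg3, Rian, Mirg, Rtl1 and the summed fibroblast markers on the right. In library 1 Meg3 lies lowest of the 8 and Rian, Mirg and Rtl1 lie below 0 with it, while H19 is the only one of the 8 above 0 there.

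The Meg3 promoter is shown because Meg3, Rian and Mirg lie in that order on the same strand and were low in the same library. The window is 250 bases before to 50 bases after the upstream of 2 start sites given by RefSeq on GRCm38.p6, chr12:109540746-109541045, plus strand. The window of the other, chr12:109545148-109545447, held none of the motifs searched and is not printed. Capitals mark matches to CCAAT, TGACGTCA and TATAAA, counted from the start site at positions -100, -57 and -25, where TATAAA also occurs on the opposite strand at -29 and the 2 matches overlap.
Meg3: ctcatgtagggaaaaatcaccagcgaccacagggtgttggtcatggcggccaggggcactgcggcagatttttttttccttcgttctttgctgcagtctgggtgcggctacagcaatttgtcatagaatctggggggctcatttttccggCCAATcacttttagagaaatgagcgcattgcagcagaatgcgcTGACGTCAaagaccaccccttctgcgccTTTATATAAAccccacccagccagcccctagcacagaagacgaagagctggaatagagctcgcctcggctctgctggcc
Both strands were searched, and GGGCGG and CACGTG were not found in the window. TATAAA, the core of the TATA box, occurs in 13.6% of 32851 promoter windows of the same length, CCAAT in 37.4%, TGACGTCA, the palindromic cyclic AMP response element, in 1.79%, GGGCGG in 35.7% and CACGTG in 7.15%. RefSeq windows were found for 5 of the 8 genes, namely Malat1, Miat, Meg3, Kcnq1ot1 and Airn. A match describes letters and does not show that a factor binds.

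Kcnq1ot1 (ENSMUSG00000101609, minus strand, chr7:143212155-143296549 in the table) is the paternally expressed RNA that starts inside Kcnq1 and runs against it, and its own promoter carries the imprint of the domain. It had 1688, 2436 and 2483 counts. These are 89.3, 133 and 147 CPM, 123 ± 30.1 CPM on average, with library 1 lowest and 1.65-fold under library 3 (exact 95% interval 1.55 to 1.75). Kcnq1, the potassium channel gene on the opposite strand, had 71, 40 and 34 counts and ran the other way, highest in library 1. Cdkn1c, the cell cycle inhibitor silenced on the paternal chromosome, had 81, 98 and 77 counts and was not called in the test of variation between libraries. On log2(CPM + 1), Kcnq1ot1 exceeded Kcnq1 by 5.09 ± 0.74 and Cdkn1c by 4.41 ± 0.32.

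Length set much of these ratios, because Kcnq1ot1 is annotated as 1 exon of 93092 bases against 4093 bases of exon for Kcnq1 and 2039 for Cdkn1c. Per kilobase of exon, the ratio to Kcnq1 fell to 0.58 and the ratio to Cdkn1c turned to -1.10, so Cdkn1c stood higher per length. The 4 small RNA rows inside Kcnq1ot1, such as Gm27389, had no count, and 1.2% of its exon bases overlap exons on the opposite strand. The sources used here do not give how strands were counted, so reads of unspliced Kcnq1 RNA inside Kcnq1ot1 cannot be told apart from it. Of the other coding genes of the domain, Nap1l4 stood at 86.4 ± 3.89 CPM and Cd81, a tetraspanin, at 41.5 ± 9.23 CPM, while Ascl2 had no count.

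The Kcnq1ot1 promoter window, chr7:143296498-143296797 on the minus strand of GRCm38.p6, is shown because it holds CCAAT, the letters that the factor NF-Y binds, at -188, -148 and -67, marked by capitals.
Kcnq1ot1: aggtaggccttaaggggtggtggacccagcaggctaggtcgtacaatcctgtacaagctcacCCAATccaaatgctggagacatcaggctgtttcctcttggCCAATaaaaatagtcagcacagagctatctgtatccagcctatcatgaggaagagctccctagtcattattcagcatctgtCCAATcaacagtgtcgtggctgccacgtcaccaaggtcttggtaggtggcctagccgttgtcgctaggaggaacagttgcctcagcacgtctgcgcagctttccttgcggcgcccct
At least 3 matches to CCAAT occur in 3.37% of the promoter windows. The Malat1 window held none of the 5 motifs searched, that of Miat held GGGCGG and that of Airn held GGGCGG and TATAAA.

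H19 (ENSMUSG00000000031, chr7:142575529-142578143, minus strand, 2460 bases of exon), the maternally expressed RNA that shares enhancers with the growth factor gene Igf2, was low. It had 62, 30 and 6 counts, which are 3.28, 1.63 and 0.356 CPM and average 1.76 ± 1.47 CPM. H19 was the only member that was highest in library 1, and the highest and lowest libraries differed 9.23-fold (exact 95% interval 4.01 to 26.1). The share of counts on genes annotated as microRNA ran in the same order, at 15.1%, 12.9% and 8.36%. The summed markers of endothelium, alveolar and airway epithelium and myeloid cells given above were also highest in library 1, but lowest in library 2 rather than 3. The part of either in the level of H19 was not tested. Igf2, the paternally expressed partner, had 177, 199 and 112 counts, so it too was lowest in library 3, and its range was narrower. The log2 ratio of H19 to Igf2 was -1.28, -2.17 and -2.49, or -1.98 ± 0.63, and -0.76 per kilobase of exon. Igf2 was thus the higher in each of the 3 libraries on log2(CPM + 1). Over 25 coding genes of the imprinted domains, 13 reached 1 CPM and 6 reached 10 CPM, with a median log2(CPM + 1) of 1.41 ± 0.06.

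H19 is the host RNA of miR-675, and Meg3 of miR-770. Both hairpins have a gene of their own in the table, Mir675 and Mir770, and both had 0 counts in each library. Both lie inside their host genes. How reads that overlap 2 genes were counted is not given, so these counts of 0 set no limit. The mature sequences from RefSeq on GRCm38.p6 are shown with the seed, bases 2 to 8, in capitals, since none of the 4 shares a seed with another.
mmu-miR-675-5p: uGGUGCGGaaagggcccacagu
mmu-miR-675-3p: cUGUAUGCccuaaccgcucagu
mmu-miR-770-5p: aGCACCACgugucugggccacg
mmu-miR-770-3p: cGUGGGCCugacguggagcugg
Of 10 microRNA genes listed from H19, Meg3 and the cluster that follows Meg3, 8 had no count, Mir540 had 5 counts in library 2 and Mir1193 had 3 in library 3. Outside that list, Mir673, directly beyond Meg3, had 2, 0 and 1 counts, and Mir1906-1 in Meg3 and Mir493 beyond it had none. The libraries were built from total RNA, and the sources used here do not give a size selection that would keep or lose mature microRNAs.

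Airn (ENSMUSG00000078247, chr17:12741311-12860122, plus strand) is the paternally expressed RNA that starts inside Igf2r and runs against it. It had 60, 114 and 95 counts, or 3.18, 6.21 and 5.63 CPM, 5.0 ± 1.61 CPM on average. Library 1 was lowest, 1.96-fold under library 2 (exact 95% interval 1.42 to 2.72). Igf2r, the receptor that carries IGF2 to the lysosome, had 1986, 1903 and 1789 counts, which are 105, 104 and 106 CPM. Its range was narrow beside that of Airn, although it too varied beyond counting error after TMM scaling (chi-square test, Benjamini-Hochberg adjusted p = 0.00584). The log2 ratio of Airn to Igf2r was -4.67, -3.86 and -4.01, or -4.18 ± 0.43, and -2.81 per kilobase of exon. Airn is mostly unspliced, and its annotation holds 3597 bases of exon in a span of 118812 bases. The sources used here do not give whether reads in introns were counted. Of the coding genes beside it, Mas1 had 0, 0 and 2 counts, Slc22a3 1, 0 and 9, and Slc22a2 0, 2 and 5. These stood at or under the limit of 3 counts in at least 1 library each, so no ratio to Airn is given.

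Pvt1 (ENSMUSG00000097039, chr15:62037986-62378096, plus strand) lies downstream of Myc. Merged over its annotated transcripts, it holds 21 separate stretches of exon over 340111 bases. It had 59, 81 and 90 counts, or 3.12, 4.41 and 5.33 CPM, 4.29 ± 1.11 CPM on average. Myc, which encodes the MYC transcription factor, had 751, 944 and 872 counts. The log2 ratio of Pvt1 to Myc was -3.31, -3.28 and -3.06, or -3.21 ± 0.14, and -4.58 per kilobase of exon. On log2(CPM + 1) this was the narrowest spread of the 10 ratios computed. With 0.1 added in place of 1, its SD was 0.19, wider than the 0.12 of Meg3 to Rian. Both genes were lowest in library 1, and Myc exceeded Pvt1 in each of the 3 libraries.

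Miat (ENSMUSG00000097767, chr5:112213228-112229395, minus strand, 9293 bases of exon), a nuclear RNA studied mostly in neurons, heart and vessels, was the lowest member. It had 10, 6 and 32 counts, or 0.529, 0.327 and 1.90 CPM, 0.917 ± 0.854 CPM on average. The 2 lower libraries were at 6 and 10 counts and library 3 held 32, a 5.80-fold range whose exact 95% interval ran from 2.39 to 17. All 5 rows that overlap it had no count, although exons on the opposite strand cover 24.3% of its exon bases, those of Gm26953 among them. Exons on the same strand cover 7.74%, and how reads that overlap 2 genes were counted is not given. Lymphocyte markers summed to 2381, 2606 and 2874 CPM over 10 genes of which none was at 0. Of the 10, 7 were highest in library 3, beside 42.3% of all genes with at least 10 counts. The T cell markers Cd3e, Cd3g and Il7r were lowest there. Their part in the level of Miat was not tested.

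**Figure D3:**
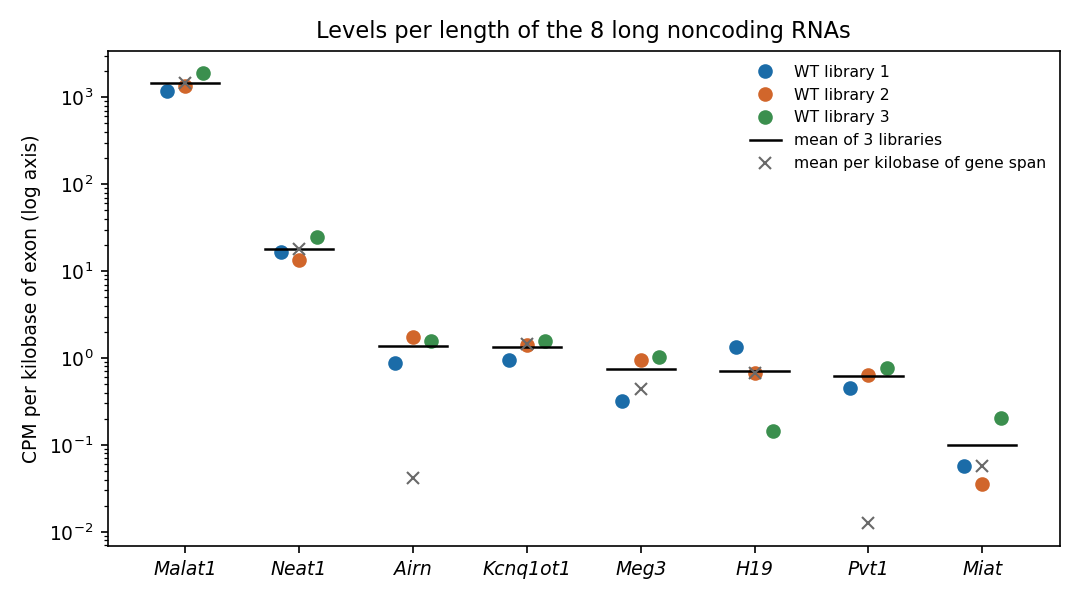
CPM per kilobase of exon on a log axis for the 8 long noncoding RNAs, 1 point per WT library, a line at the mean of 3, and a cross at the mean per kilobase of gene span. Malat1 and Neat1 stand above the rest, and the crosses of Airn and Pvt1 fall to 0.0421 and 0.0126, below that of Miat at 0.0567.

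Per kilobase of exon the order was Malat1, Neat1, Airn, Kcnq1ot1, Meg3, H19, Pvt1 and Miat. After Neat1 came a group of 5 within a narrow range, with Airn at 1.39 ± 0.448, Kcnq1ot1 at 1.32 ± 0.323, Meg3 at 0.757 ± 0.381, H19 at 0.714 ± 0.596 and Pvt1 at 0.613 ± 0.159 CPM per kilobase. Miat was lowest, at 0.0987 ± 0.0919. Of the 7 neighbouring pairs in this order, 4 kept their order in each of the 3 libraries, namely Malat1 above Neat1, Neat1 above Airn, Kcnq1ot1 above Meg3 and Pvt1 above Miat. Airn and Kcnq1ot1 differed by 0.05 ± 0.21 on the log2 scale, Meg3 and H19 by 0.41 ± 2.44, and H19 and Pvt1 by -0.25 ± 2.01, which is less than their spread. The order turns on the annotation as well. For Kcnq1ot1 the 93092 bases of GENCODE exon exceed its deposited span of 84395 bases. Over that span it stood at 1.46 CPM per kilobase, above the 1.39 of Airn per kilobase of exon. With the gene span in place of exons, Miat stood above Pvt1 by 1.79 and Airn fell below Kcnq1ot1 by 5.14 on the log2 scale. These differences carry no test, because the smallest two-sided p of an exact permutation of signs over 3 libraries is 0.25.

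**Figure D4:**
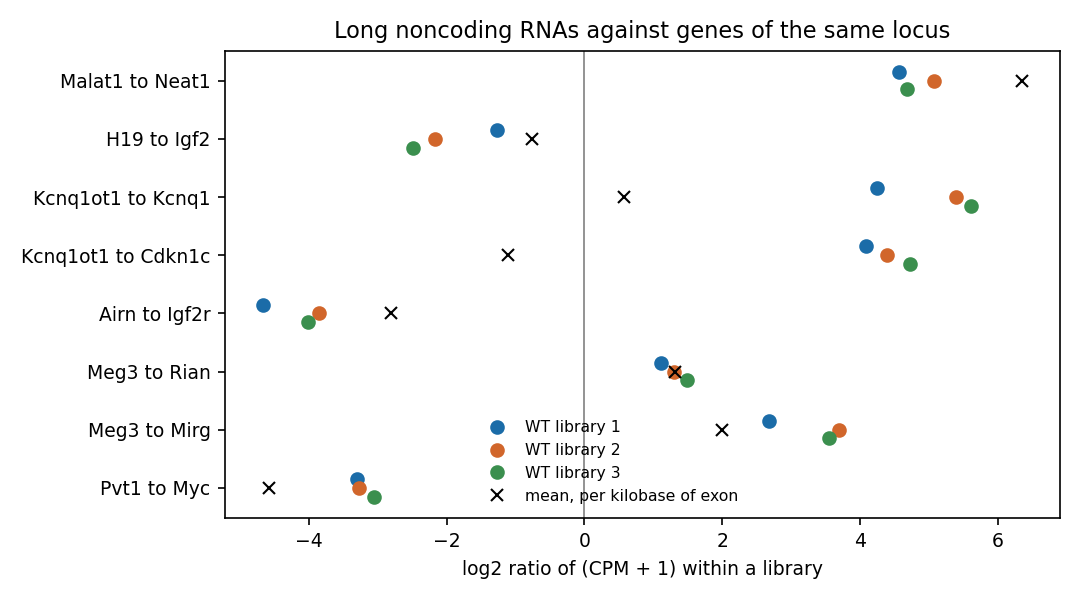
Log2 ratio of (CPM + 1) of each long noncoding RNA to a gene of its locus, 1 point per WT library, with a cross at the mean per kilobase of exon. All 3 points lie on 1 side of 0 for each of the 8 ratios drawn, and the cross changes side for Kcnq1ot1 to Cdkn1c, at -1.10.

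Whether a gene varied between libraries beyond counting error was tested with a chi-square test of its counts given the TMM-scaled library sizes, with Benjamini-Hochberg adjustment. Of the 8 RNAs, 7 were called at an adjusted p under 0.05, beside 70.0% of the 23317 genes tested and 67.8% of 2240 long noncoding RNA genes. By depth, 81.5% of genes with at least 1000 counts and 67.3% of genes with at least 30 but fewer than 1000 counts were called, so the share among the 8 is near the background. Pvt1 was not called (adjusted p = 0.0557, chi-square test). Airn was called at 0.000611 and Miat at 1.70e-05. Without library 1, 4 of the 8 were called and 38.2% of all genes tested. Meg3, Kcnq1ot1 and Airn then lost their calls, with adjusted p-values of 0.977, 0.663 and 0.301, and without library 3 Miat lost its own at 0.398. By CPM, 5 of the 8 were lowest in library 1, beside 46.4% of genes tested, and 6 were highest in library 3, beside 42.3%. After TMM scaling these were 5, beside 38.6% of genes tested, and 5, beside 29.2%, since Meg3 became highest in library 2.

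The spread is better read as a coefficient of variation that leaves out counting error. The common biological coefficient of variation was 0.266 over 16608 genes kept by the expression filter of edgeR, among them 6 of the 8 RNAs. Values of single genes are estimates that edgeR moderates toward its trend with abundance, so closeness to the trend is set in part by the method. Malat1 had 0.184 and Kcnq1ot1 0.175, against 0.182 and 0.160 on the trend for genes of their abundance. Neat1 had 0.193 against 0.163. Meg3 lay furthest above its trend, at 0.358 against 0.258, whereas Airn at 0.331 and Pvt1 at 0.318 lay below theirs. Of all genes in the filter, 27.1% lay above the trend. H19 and Miat fell below the filter.

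**Figure D5:**
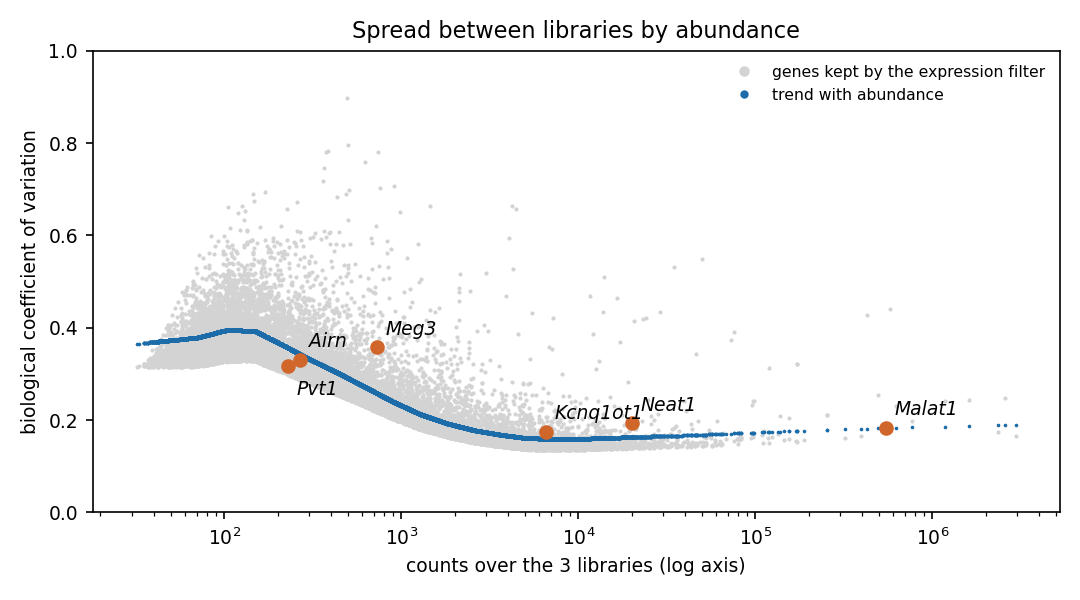
Biological coefficient of variation of each gene against its counts over the 3 libraries (log axis), with genes kept by the expression filter in grey, the trend with abundance in blue and 6 of the long noncoding RNAs in orange. Malat1 lies on the trend, Kcnq1ot1 and Neat1 slightly above it, and Meg3 furthest above it. Values of single genes are moderated toward the trend by the method.

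Few genes had the profile of Neat1 or Meg3 over the libraries, and many had that of Malat1, Kcnq1ot1 or Pvt1. Within a distance of 0.05 lay 11 genes for Neat1, 49 for Airn, 125 each for Malat1 and Kcnq1ot1 and 253 for Pvt1. The nearest to Malat1 were Ivns1abp, at 86.3, 101 and 140 CPM, and Wsb1. Emp2, at 80.5, 65.4 and 119 CPM, and Pik3cb were nearest to Neat1, and 2410002F23Rik followed Islr for Meg3. The nearest to Kcnq1ot1 were Gm13034 and Fosl2, to Airn Rpe and Scnm1, and to Pvt1 Sgsm2 and D930015E06Rik. With 3 points a profile is a description only, and H19 and Miat had too few counts for one.

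A list of other long noncoding RNAs, some nuclear and some, such as Gas5, mainly cytoplasmic, was measured in the same libraries. Of 22 symbols 18 were found and 14 reached 1 CPM, with a median log2(CPM + 1) of 2.96 ± 0.36. Xist, which coats the inactive X chromosome, stood at 650 ± 182 CPM, Gas5 at 148 ± 33.9 CPM and Tug1 at 67.1 ± 11.3 CPM. Hotair and Hottip, made from the Hox clusters, had no count. Of the 15 with at least 10 counts, 15 varied beyond counting error, beside 70.0% of all genes tested and 67.8% of long noncoding RNA genes. Of the other imprinted noncoding RNAs, Peg13 stood at 40.3 ± 1.67 CPM and was not called, Snhg14, the RNA of the Prader-Willi domain, stood at 8.46 ± 2.20 CPM, and Nespas had 1, 2 and 6 counts.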

How the data were processed

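The deposited values are raw read counts of 3 libraries as the authors made them, whole numbers with no normalization. The tools named in the submitters' processing notes include STAR 2.6.1d, featureCounts 1.6.3, Trimmomatic 0.38, FastQC and DESeq2 1.18.1. Those notes list human builds (hg38, GRCh38), whereas the gene IDs are mouse. Of 48349 IDs shared with GENCODE M21 on GRCm38, 42754 had identical coordinates, among them 6 of the 8 RNAs, with Kcnq1ot1 and Airn the exceptions. Exon lengths are the union of GENCODE exons. Per the labels' protocols, RNA was isolated with the miRNeasy micro kit and total RNA libraries were made with a stranded SMARTer kit. The sources used here give neither the strand setting of the counting, nor how reads that overlap 2 genes were counted, nor the sort gate.

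The count columns are named as controls 1 to 3 and were assigned to WT 1 to 3 by number, since WT is the only group. Counts were divided by the library total (CPM) and expressed as log2(CPM + 1), which understates differences of low genes. Variation between libraries was tested for genes with at least 10 counts given TMM sizes from edgeR 4.0.16 (R 4.3.3), and the biological coefficient of variation came from the same tool. Both steps were tested on simulated data. Intervals of folds are exact for counts. The alternatives were library totals, DESeq2 1.42.0 size factors, other filters, pseudocounts and lengths, and leaving out each library.

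The 8 RNAs, the lists and the markers were chosen with earlier results of these data known. Named genes are the 8 RNAs, their partners, the genes of the lists, rows that overlap a member or lie within 10 kb of it, the 10 highest long noncoding RNAs by CPM and the 2 genes of most like profile. Not each of them is printed. Of the list symbols, Dio3os, Meg9, Norad, Oip5os1, Morrbid and Cdr1os were not matched by name.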

Additional observations from a re-analysis of the deposited data

How the results depend on the processing

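The main limits are 3 libraries of 1 group, libraries that differ from each other in most genes, marker genes that go against the label of the cells, and a strand setting that is not known. No paired analysis was possible because there is only 1 group. Leaving out 1 library gave 8275 to 12273 genes that varied beyond counting error against 16333, and 4 to 8 of the 8 RNAs, the lower end in each case without library 1. Other sizes and filters kept both counts within 1.5 times, and 48 of 54 calls of single RNAs were kept. Pvt1 was called with library totals alone (adjusted p = 0.00926, chi-square test) and without library 2 (0.0221). Of 48 alternative values of the levels, 42 stayed within 1 SD. Dividing by counts outside mitochondrial and small RNA genes raised the median gene by 0.39 on the log2 scale. Of 28 alternative differences between neighbours per kilobase, 23 stayed within 1 SD, and Pvt1 against Miat reversed to -1.79 with gene spans.

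All ratios but Meg3 to Rian moved beyond 1 SD per kilobase of exon: Malat1 to Neat1 from 4.78 to 6.35, H19 to Igf2 to -0.76, Kcnq1ot1 to Kcnq1 to 0.58 and to Cdkn1c to -1.10, a reversal, Airn to Igf2r to -2.81, Meg3 to Mirg to 2.00 and to Dlk1 to 1.98, Pvt1 to Myc to -4.58, and Miat to Malat1 from -12.44 to -12.86. The exon lengths divided out are what changes them. With a pseudocount of 0.1, H19 to Igf2 was -2.68, Meg3 to Mirg 5.01, Meg3 to Dlk1 6.35, Pvt1 to Myc -3.46 and Miat to Malat1 -13.59. The ratios to Mirg and Dlk1, with 11 counts or fewer per library, depend on this choice, and that to Dlk1, at 0, 1 and 2 counts, is not interpretable as a fold. Leaving out a library moved no ratio and no list median beyond 1 SD.

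A mean in place of the median gave 6.80 for paraspeckle genes and 2.00 for coding genes of the imprinted domains, whose median was 0.81 with a pseudocount of 0.1. Lists held to members of at least 1 CPM gave 3.29 for those coding genes, 3.23 for the other imprinted noncoding RNAs and 4.21 for the other long noncoding RNAs. These lists hold fewer genes. Of the 12 genes of like profile, 4 stayed when genes down to 1 CPM were admitted.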
